A study of Mus musculus with 5 samples.

Results

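The domain described here is a stretch of mouse chromosome 6 that holds *Peg10*, *Sgce*, *Casd1*, *Ppp1r9a*, *Pon2* and *Pon3*. These 6 genes, of 32286 features counted in the files, were chosen by their position near each other after earlier expression results of the same tumours had been seen. Their levels across tumours are therefore given as a description, with no test. From the first base of *Casd1* to the last base of *Pon2* the domain runs over 698 kb, at chr6:4600839-5298455 of genome build GRCm38, which is mm10, in the GENCODE M21 annotation. The questions were whether its paternally expressed genes and their neighbours rose and fell together across tumours of different histology, and whether other cell types of the same tumours followed.

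The 5 tumours were synovial sarcomas (SyS), a soft tissue cancer driven by an SS18::SSX fusion, from *hSS2* mice. In these mice the human *SS18::SSX2* fusion sits at *Rosa26* and was switched on in the hindlimb with TATCre, a cell-permeable Cre recombinase protein injected at 8 days of life, so that all tumours carry the fusion and none of the groups is free of it. By histology there were 2 biphasic tumours (BP), 1 monophasic (MP), 1 with monophasic and biphasic parts (MP+BP) and 1 with poorly differentiated and monophasic parts (PD+MP), each taken when the animal became ill. Both BP titles begin with the same number, and whether 1 animal bore both was not given in the sources used here.

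Each tumour was dissociated and sequenced as 1 single-cell library with 3′ chemistry, in which unique molecular identifiers (UMIs) count captured RNA molecules, and 39559 of 51670 called cells were kept. Total UMIs per library lay between 89996321 and 118649103, and 231 of 51437 distinct barcodes (0.449%) occurred in more than 1 library. Clusters were named from marker genes as SyS-like (3669 to 6898 cells per tumour), stromal (166 to 532, fibroblast-like and pericyte-like together), endothelial-like (80 to 661) and macrophage-like (499 to 976). The EGFP feature of the files stood between 31.5 and 42.5 CPM (the UMIs of a gene per 1000000 UMIs of a sum) in the SyS-like cells and at no more than 2.93 CPM in any other class. The 14 SyS markers summed to between 3104 and 4180 CPM in SyS-like cells and to at most 220 CPM elsewhere. Of these markers, 7 to 10 per tumour had at least 20 CPM in SyS-like cells. Their median level in the other classes was 1.73% to 6.53% of that in SyS-like cells of the same tumour. Single markers ran from 0% to 54.3%. The median is the yardstick used below for free RNA that enters every droplet.

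Genomic imprinting silences 1 parental copy of a gene through marks set in the germ line. *Sgce*, which encodes epsilon-sarcoglycan, a membrane glycoprotein, and *Peg10*, a gene derived from a retrotransposon with a gag-like reading frame and a role in the placenta, are transcribed from the paternal chromosome in most tissues and start head to head from a shared, differentially methylated promoter region. Neighbours have been described as maternally expressed in some tissues, mainly extraembryonic ones and brain, among them *Ppp1r9a*, which encodes neurabin, a protein that binds actin and protein phosphatase 1. *Casd1* encodes a sialic acid O-acetyltransferase, and *Pon2* and *Pon3* are paralogous paraoxonases, enzymes that hydrolyse lactones. UMI counts at the 3′ end do not tell the parental copies apart, so the values below are total levels.

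In the annotation the *Sgce* start (chr6:4674350-4747207, minus strand) and the *Peg10* start (chr6:4747306-4760517, plus strand) lie 99 bases apart. *Casd1* (chr6:4600839-4643355, plus strand) lies on the *Sgce* side, and *Ppp1r9a* (chr6:4902917-5165661, plus strand), *Pon3* (chr6:5220852-5256286, minus strand) and *Pon2* (chr6:5264147-5298455, minus strand) follow on the *Peg10* side. The promoter table of RefSeq (GRCm38.p6), which gives 250 bases before to 50 after a start, holds entries for 4 of the 6 genes, and *Peg10* and *Sgce* have none. The windows of *Casd1* and *Ppp1r9a*, the closest neighbour on either side, are shown because the level of *Ppp1r9a* varied widely between tumours and that of *Casd1* hardly did. The *Casd1* window is chr6:4600661-4600960 and the *Ppp1r9a* window chr6:4903061-4903360, both on the plus strand and read 5′ to 3′, and capitals mark each CG, a motif that reads the same on the other strand.
Casd1: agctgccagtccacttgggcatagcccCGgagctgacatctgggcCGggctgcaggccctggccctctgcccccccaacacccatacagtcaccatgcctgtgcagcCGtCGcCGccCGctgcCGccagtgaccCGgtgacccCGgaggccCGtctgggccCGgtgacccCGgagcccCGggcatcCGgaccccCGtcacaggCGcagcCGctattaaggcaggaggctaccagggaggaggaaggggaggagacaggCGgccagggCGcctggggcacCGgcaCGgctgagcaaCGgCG
Ppp1r9a: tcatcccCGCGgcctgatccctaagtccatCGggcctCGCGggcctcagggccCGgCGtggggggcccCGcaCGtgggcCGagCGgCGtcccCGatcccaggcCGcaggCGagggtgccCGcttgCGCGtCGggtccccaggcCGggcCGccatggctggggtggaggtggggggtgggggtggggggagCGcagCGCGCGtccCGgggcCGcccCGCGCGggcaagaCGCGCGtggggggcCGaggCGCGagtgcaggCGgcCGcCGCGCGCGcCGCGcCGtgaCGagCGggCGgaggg
The *Ppp1r9a* window holds 48 CG, a number that 1.22% of all 32851 windows of that length reach, and the *Casd1* window holds 23, reached by 21.5%. The windows of *Pon2*, with 31, and *Pon3*, with 7, were reached by 10.6% and 52.1% of windows, and the median window holds 7. A second entry of *Casd1* holds 5 CG, reached by 62.0% of windows, and a second entry of *Ppp1r9a* holds 10, reached by 43.5%. That second *Ppp1r9a* window, chr6:4902725-4903024, contains the start of the gene in the annotation, chr6:4902917, and the printed window begins after it.

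In SyS-like cells *Peg10* stood at 10.7 CPM in BP replicate 1, 10.3 in BP replicate 2, 3.67 in MP, 1.49 in MP+BP, and PD+MP had 0.472. *Sgce* stood at 27.5, 28.5, 7.65, 1.86 and 1.33 CPM in the same order of tumours. Both genes were thus high in the biphasic tumours, lower in the monophasic one and lowest in the mixed ones. The highest tumour exceeded the lowest 22.7-fold for *Peg10* and 21.4-fold for *Sgce*. The 5 sums behind these values held 34 to 941 UMIs of *Peg10* and 96 to 2600 of *Sgce*.

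The BP replicates lay close together, at 10.5 ± 0.300 CPM for *Peg10* and 28.0 ± 0.702 CPM for *Sgce* (SD, n = 2). Their ratio was 1.04 for *Peg10*, with a 95% counting interval from 0.943 to 1.15, and 0.965 for *Sgce*, from 0.908 to 1.03, so neither gene differed between them beyond counting error. BP replicate 2 exceeded MP 2.81-fold in *Peg10* (2.45 to 3.23), MP exceeded MP+BP 2.46-fold (1.96 to 3.11), and MP+BP exceeded PD+MP 3.16-fold (2.13 to 4.79). For *Sgce* the last step was 1.39-fold (1.06 to 1.83). These intervals are exact and cover counting error only, and MP, MP+BP and PD+MP have 1 tumour each, so the spread between tumours of those labels is unknown. They also treat UMIs as independent, whereas 71 of the 700 *Peg10* UMIs of BP replicate 1 came from 1 cell. PD+MP also stood apart as the one tumour with the Y-linked gene *Uty*, at 135.3 CPM in SyS-like cells against at most 0.0403 in the others, and the one nearly without *Xist*, the RNA of the inactive X chromosome, at 0.361 against at least 1492 CPM. A difference by sex of the animal and one by histology cannot be told apart for this tumour.

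The neighbours did not share this order. *Ppp1r9a* stood at 62.1 CPM in BP replicate 1, 73.9 in BP replicate 2, 63.1 in MP, 3.70 in MP+BP, and PD+MP had 32.1. It was as high in MP as in the biphasic tumours, where *Peg10* and *Sgce* were not, and it was lowest in MP+BP, 19.99-fold below its highest tumour, instead of in PD+MP. Of its 263 UMIs in MP+BP, 55 came from 1 cell. *Pon2* stood at 39.0, 35.9, 32.5, 25.8 and 81.9 CPM in BP replicate 1, BP replicate 2, MP, MP+BP and PD+MP, with its highest level in the tumour lowest in *Peg10*. *Casd1* held 54.4, 63.2, 56.6, 53.4 and 74.5 CPM, a 1.40-fold spread, and *Pon3* held 9.83, 10.4, 8.27, 7.35 and 9.29 CPM, a 1.41-fold spread. Of the domain's genes, then, the head-to-head pair moved together across tumours, *Ppp1r9a* shared the low level in MP+BP, and *Casd1* and *Pon3* were near constant.

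**Figure D1:**
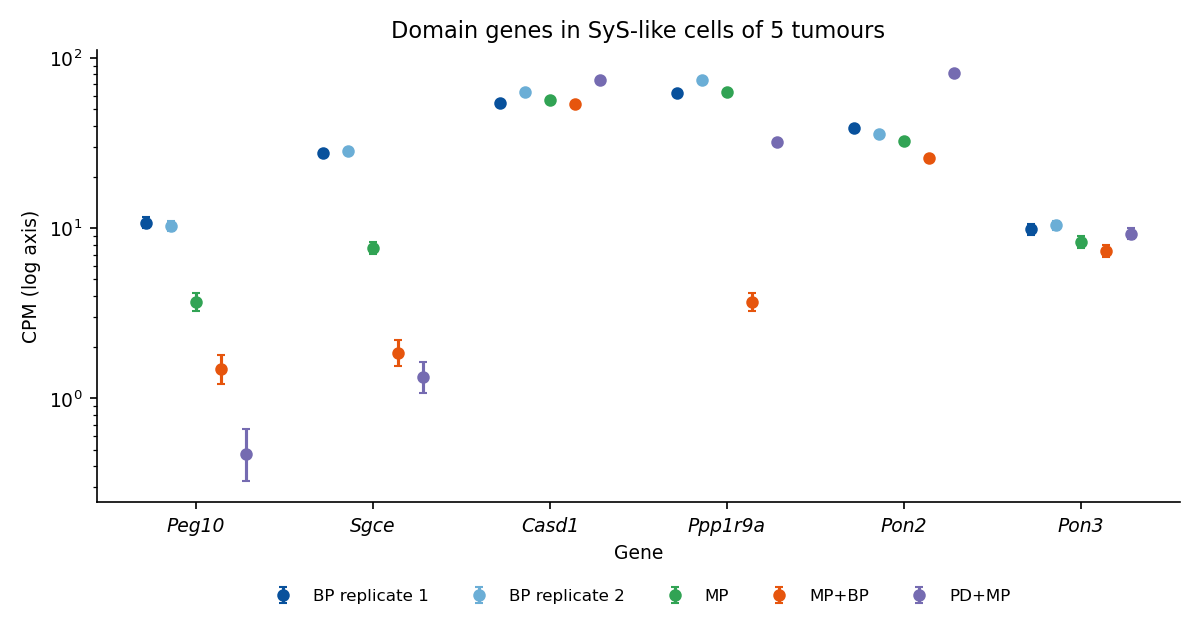
CPM of each of the 6 genes in SyS-like cells, on a log axis, with 1 point per tumour and exact 95% Poisson intervals that cover counting error only. *Peg10* and *Sgce* step down from the BP tumours through MP and MP+BP to PD+MP, *Ppp1r9a* is low in MP+BP at 3.70, and *Pon2* is high in PD+MP at 81.9.

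Among 15616 genes with a mean of at least 1 CPM in SyS-like cells, 16.3% spread at least 4-fold and 4.45% at least 16-fold between tumours, and the median spread was 1.84-fold. Of the 6 domain genes 3 spread at least 4-fold, and the same 3, *Peg10*, *Sgce* and *Ppp1r9a*, at least 16-fold, with a median of 11.6-fold over the 6. The order of tumours that *Peg10* shows, with both BP tumours above MP, MP above MP+BP and MP+BP above PD+MP, was found in 2.72% of genes, and together with a 16-fold spread in 0.186%, or 29 genes. *Peg10* and *Sgce* were 2 of these 29. Since the genes were proposed with these values in view, nothing is read from the shares.

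Other genes of this stretch of chromosome 6, from *Calcr* to *Slc25a13*, were listed as a comparison. Their imprinting was not assessed here, so they are not taken as free of imprinted genes. They lie on either side of the domain, except *Pon1* (chr6:5168090-5193946), which lies inside it between *Ppp1r9a* and *Pon3*. Of these 11 neighbours 7 had a mean of at least 1 CPM, 4 spread at least 4-fold and 1 at least 16-fold, with a median of 7.27-fold. *Pdk4*, a kinase that restrains pyruvate dehydrogenase, stood at 4.26, 3.34, 1.21, 0.548 and 0.403 CPM in BP replicate 1, BP replicate 2, MP, MP+BP and PD+MP, and was the one neighbour with the order of *Peg10*. *Dync1i1*, a dynein chain, was highest in MP+BP at 10.9 CPM and lowest in PD+MP at 0.569. *Bet1*, which lies before *Casd1* and serves vesicle transport, ranged from 47.3 to 86.2 CPM.

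Most imprinted genes of other domains did not share the order of *Peg10*. Of 32 listed, 27 had a mean of at least 1 CPM, 8 spread at least 4-fold and 4 at least 16-fold, and their median spread of 2.05-fold was near the 1.84-fold of all genes. *Cdkn1c*, a cell cycle inhibitor expressed from the maternal copy, and *Ndn*, a paternally expressed gene of another domain, had the order of *Peg10*. *Ndn* stood at 61.6, 46.7, 34.3, 13.2 and 6.89 CPM and *Cdkn1c* at 130.9, 113.3, 97.1, 83.4 and 40.0 CPM from BP replicate 1 to PD+MP. *Peg3*, also paternally expressed, was low in MP alone, at 0.538 CPM against 25.6 to 39.4 in the other tumours. The growth factor gene *Igf2* and its imprinted partner *H19* were high in PD+MP alone, where *Peg10* was lowest, at 1318 and 230 CPM against at most 37.6 and 0.484.

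*Peg10* and *Sgce* also varied together among clusters inside the tumours, though not in the same rank order throughout. None of the 6 genes was among the 3000 features used for clustering. Over the 23 sums of a SyS-like cluster in a tumour with at least 100 cells, log2(CPM + 1) of *Peg10* and *Sgce* correlated with Pearson's r of 0.956 and Spearman's rho of 0.921, and of 15904 other genes none had a higher r with *Peg10*, nor with *Sgce*, than the partner. With each tumour's mean taken out r was 0.929, again first of 15904 in either direction. Over the 6 clusters of BP replicate 1 alone r was 0.942 and rho 0.657. There cluster 17 had the highest *Sgce*, at 63.8 CPM, but 11.5 CPM of *Peg10* against 12.8 in the largest cluster. *Ppp1r9a* came 100th for *Peg10*, with r of 0.711, and 344th with tumour means taken out, with r of 0.575. *Casd1* and *Pon2* had r of 0.191 and 0.120 with *Peg10*. These correlations are descriptions, since the sums share 5 libraries and differ in depth.

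In BP replicate 1 a cluster of 613 cells (cluster 18) had 0.710 CPM of *Peg10*, from 9 UMIs, and 1.74 of *Sgce*, from 22 UMIs. The other 5 clusters of that tumour ranged from 3.36 to 19.8 CPM of *Peg10* and from 11.3 to 63.8 of *Sgce*, where 71 of the 149 *Peg10* UMIs behind the highest value came from 1 cell and the next cluster had 12.9 CPM. *Ppp1r9a* in cluster 18 was 11.3 CPM, from 143 UMIs of which 50 came from 1 cell, against 85.3 in the largest cluster, while *Casd1* was lower by less, at 47.3 against 57.0 CPM, and *Pon2* was higher, at 51.1 against 36.3 CPM, with counting intervals that did not overlap. Within a single biphasic tumour, then, 1 cluster had *Peg10* and *Sgce* levels near those of MP+BP and PD+MP. Its EGFP level of 44.4 CPM was in the range of the other SyS-like cells, and cells of it carried 10 of the SyS markers.

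A cluster present in every tumour (cluster 6, led by genes such as *Mgp* and *Sst*) went different ways. In BP replicate 2 its 733 cells had 1.18 CPM of *Peg10*, 4.54 of *Sgce* and 7.23 of *Ppp1r9a*, below the other clusters of that tumour, where *Peg10* was at least 10.4. In BP replicate 1 its 206 cells had 3.36, 11.3 and 4.20 CPM of the same genes. In MP its 142 cells had 23.4 CPM of *Peg10*, from 24 UMIs in 13 cells, and 21.5 of *Sgce*, from 22 UMIs in 16 cells, above the 3.19 and 7.27 CPM of the largest MP cluster, and 52.7 of *Ppp1r9a*. In PD+MP its 199 cells held no UMI of *Peg10* or *Sgce*, which allows up to 2.64 CPM, and in MP+BP its 996 cells held 2.22 and 2.34 CPM. Among the clusters of BP replicate 2, cluster 6 was also lowest in *Casd1*, *Pon2* and *Pon3*, at 45.4, 17.8 and 4.54 CPM. The same held in PD+MP, at 57.3, 12.9 and 6.45 CPM. In MP it was highest in *Pon2* and *Pon3*, at 38.0 and 16.6 CPM.

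**Figure D2:**
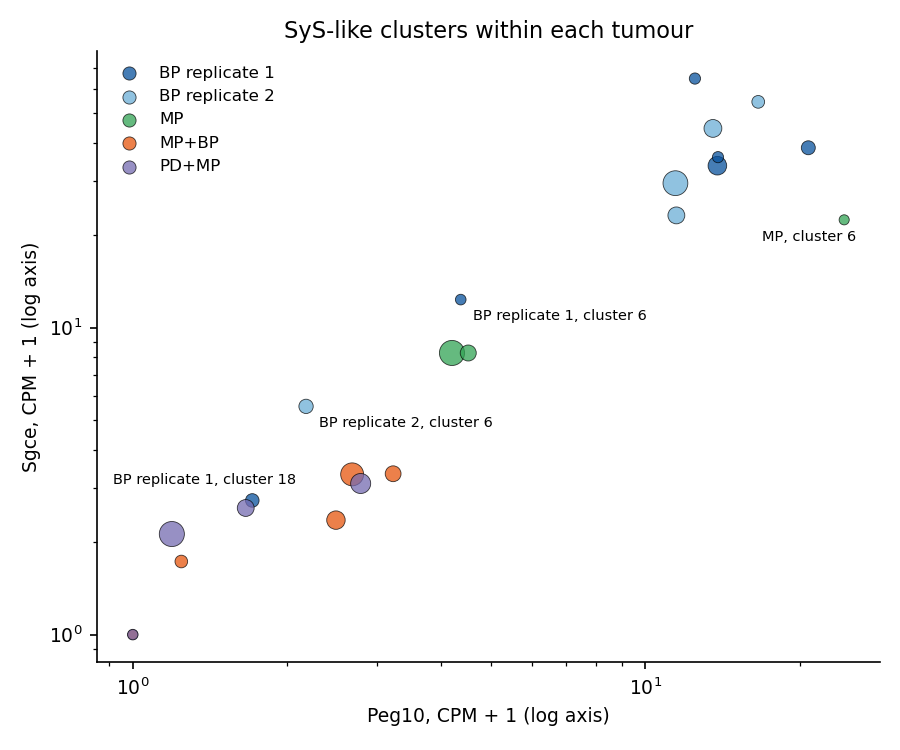
Each point is a SyS-like cluster in a tumour with at least 100 cells (23 points), with *Peg10* on the x axis and *Sgce* on the y axis, both as CPM plus 1 on log axes, and area growing with the number of cells. The 2 points without a UMI of either gene, in MP+BP and PD+MP, coincide. The points lie along 1 diagonal, and cluster 18 of BP replicate 1 sits among the MP+BP and PD+MP points at 0.710 and 1.74 CPM.

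Cycling clusters held 8.30% to 23.4% of the SyS-like cells. Their *Peg10* level was 12.1, 10.5, 3.51, 0.243 and 0.660 CPM from BP replicate 1 to PD+MP, against 10.6, 10.3, 3.75, 1.65 and 0.386 CPM in the other SyS-like clusters. *Sgce* was 33.1, 22.2, 7.27, 0.730 and 1.58 CPM in cycling clusters and 26.8, 30.3, 7.83, 2.00 and 1.22 CPM in the others. In both kinds of cells the BP tumours were highest and MP came next. Among cycling cells *Peg10* in MP+BP, at 0.243 CPM from 2 UMIs, was below PD+MP, with 15 UMIs. Their counting intervals, 0.0295 to 0.879 and 0.369 to 1.09 CPM, overlap.

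Counted per cell, a *Peg10* UMI was found in 10.8% of SyS-like cells in BP replicate 1, 9.09% in BP replicate 2, 4.30% in MP, 0.946% in MP+BP, and PD+MP had 0.514%. After each cell was thinned to 2000 UMIs, with 8 to 537 shallower cells per tumour left out, the shares were 1.80%, 1.72%, 0.889%, 0.194% and 0.0679%. *Sgce* thinned in the same way was found in 5.87%, 5.41%, 1.82%, 0.406% and 0.272% of cells. Macrophage-like cells of MP+BP, a type taken here as the background, had *Peg10* in 0.193% of thinned cells (1 of 519, exact 95% binomial interval 0.00488% to 1.07%), so the SyS-like share of 0.194% there (11 of 5659) could not be told from background at this depth. Before thinning the shares in MP+BP were 0.946% of SyS-like and 0.364% of macrophage-like cells. In PD+MP it was 4 of 5889 SyS-like cells and 0 of 912 macrophage-like cells, and the latter allows up to 0.404% by an exact 95% binomial interval. Median depth was 8537 to 12276 UMIs in SyS-like cells and 4333 to 6733 in macrophage-like cells. In thinned MP cells 5 of the 39 with a *Peg10* UMI also had one of *Sgce*, and in BP replicate 1 it was 7 of 66, counts too small to describe single cells further.

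The other cell classes of the same tumours had orders of their own. In stromal cells *Peg10* was 2.33 CPM in BP replicate 1, 0 in BP replicate 2, 2.20 in MP, 13.3 in MP+BP, and PD+MP had 8.06, from 0 to 12 UMIs. *Sgce* in stromal cells was 40.5, 17.7, 41.0, 57.5 and 55.0 CPM. The values in MP+BP and PD+MP were the highest for both genes, whereas the SyS-like cells of these tumours had the lowest levels. Part of this order was within counting error, since BP replicate 1 over PD+MP was 0.290 for *Peg10* (0.0519 to 1.10), and for *Sgce* BP replicate 1 was 0.703 of MP+BP (0.469 to 1.05) and 0.736 of PD+MP (0.507 to 1.06). In MP+BP the stromal cells exceeded the SyS-like cells in *Sgce* by 57.5 to 1.86 CPM and in PD+MP by 55.0 to 1.33 CPM, whereas in BP replicate 2 they had 17.7 against 28.5 CPM. The makeup of the stroma differed, since 128 of 166 stromal cells in PD+MP were fibroblast-like against 0 to 22 elsewhere, and its part in the levels was not tested. In pericyte-like cells alone *Sgce* was 39.9, 17.7, 41.0, 54.7 and 31.4 CPM, and all 11 *Peg10* UMIs of the PD+MP stroma were in fibroblast-like cells, which had 9.91 CPM.

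In endothelial-like cells *Peg10* was 1.02 CPM in BP replicate 1, 2.24 in BP replicate 2, 5.27 in MP, 6.62 in MP+BP, and PD+MP had 1.73. *Sgce* was 4.28, 5.04, 14.2, 37.0 and 5.18 CPM, with 123 UMIs in MP+BP and 3 in the 80 cells of PD+MP. The endothelium of MP and MP+BP was thus higher in both genes than that of the BP tumours, with *Sgce* intervals of 11.3 to 17.7 and 30.7 to 44.1 CPM against 2.65 to 6.54 and 2.99 to 7.97, where SyS-like cells had the opposite order. *Ppp1r9a* followed in the endothelium, at 5.50, 7.84, 13.2, 15.6 and 1.73 CPM, and was there highest in MP+BP, the tumour in which its SyS-like level was lowest. Without a cluster of 167 endothelial-like cells that the pericyte marker *Rgs5* also leads, *Sgce* was 3.58, 3.64, 10.6, 34.6 and 6.43 CPM. In the endothelium of MP+BP the median SyS marker stood at 2.13% of its SyS-like level and *Sgce* at 1993%.

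Macrophage-like cells held few UMIs of either gene. *Peg10* had 3, 3, 0, 2 and 1 UMIs from BP replicate 1 to PD+MP, which is at most 0.767 CPM, and *Sgce* had 11, 12, 4, 6 and 0 UMIs, at most 2.52 CPM. In the BP tumours this was 4.28% and 6.11% of the SyS-like level for *Peg10*, beside 1.73% and 3.35% for the median SyS marker in the same cells. Both *Peg10* values lay within the range of single SyS markers there, 0.576% to 31.3% and 0.485% to 38.5%. The part of free RNA was not tested further. *Ppp1r9a* was present in macrophage-like cells of all tumours, at 26.3, 43.2, 24.1, 18.8 and 21.3 CPM, and its lowest value was again in MP+BP, with an interval of 13.9 to 24.8 that overlaps those of BP replicate 1, MP and PD+MP.

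**Figure D3:**
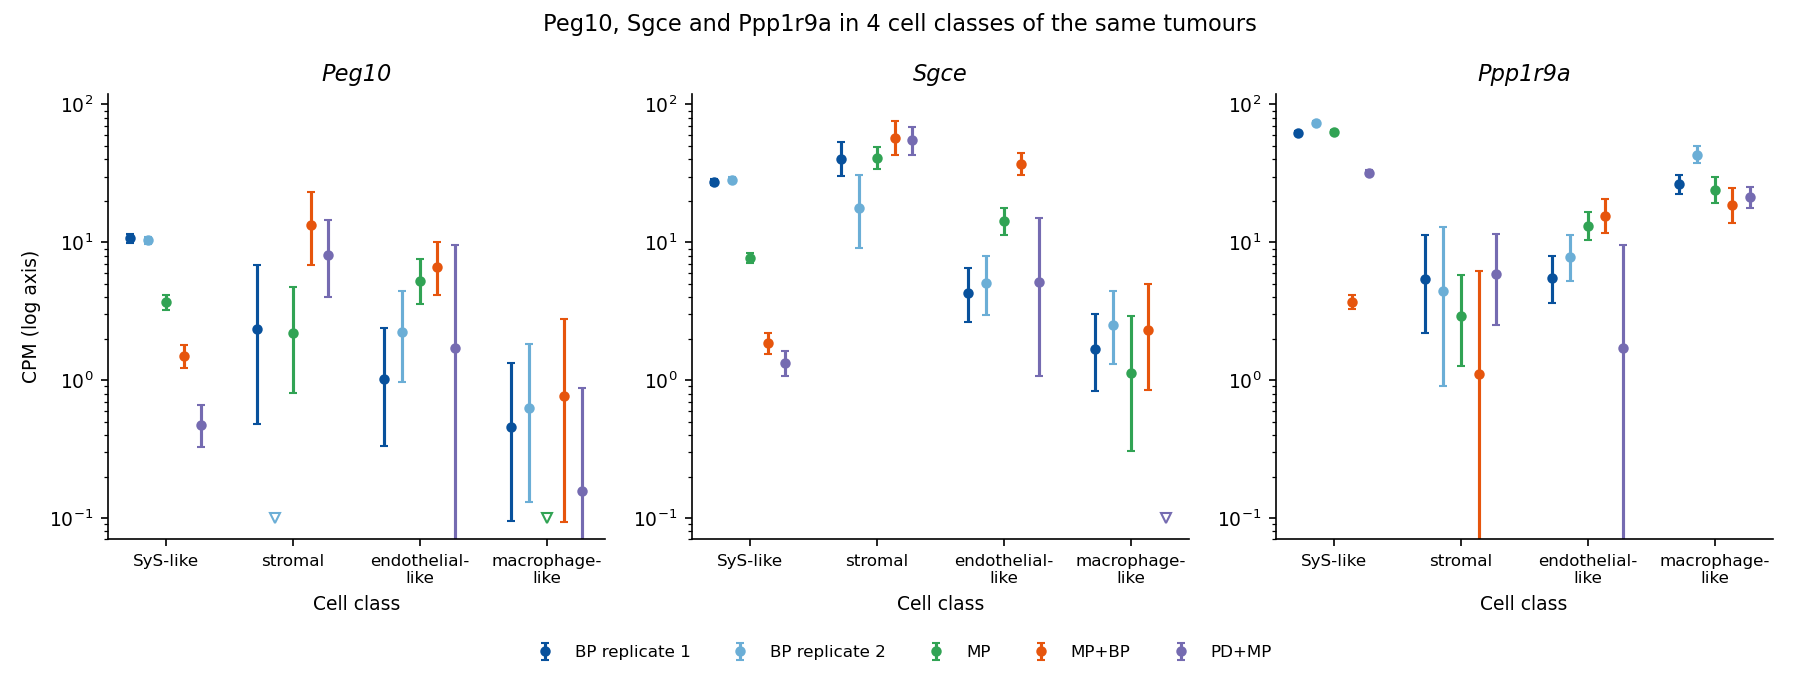
CPM of *Peg10*, *Sgce* and *Ppp1r9a* in the 4 cell classes of each tumour, on a log axis, with exact 95% Poisson intervals; open triangles mark sums with no UMI and are drawn at 0.1 for display. The step down from BP to PD+MP is seen in SyS-like cells, while *Sgce* in endothelial-like cells is highest in MP+BP at 37.0.

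*Casd1*, *Pon2* and *Pon3* spread at most 1.70-fold between tumours in the stromal, endothelial-like and macrophage-like cells. *Casd1* was at most 46.2 CPM in stromal cells and ranged from 48.3 to 71.2 in endothelial-like cells and from 24.4 to 35.9 in macrophage-like cells. *Pon2* ranged from 45.4 to 70.8, from 113.9 to 193.2 and from 52.8 to 70.9 CPM in the same classes, and *Pon3* from 14.8 to 21.8, from 22.4 to 34.6 and from 23.0 to 33.1 CPM. The high *Pon2* level of PD+MP, 81.9 CPM in its SyS-like cells, was not seen in the other classes as a whole, where PD+MP was the lowest of the 5 tumours. In pericyte-like cells alone PD+MP was the highest, at 86.2 CPM from 22 UMIs in 38 cells, against 50.5 to 70.8 CPM in the other tumours. Its counting interval, 54.0 to 130.5 CPM, overlaps theirs. The fibroblast-like cells of PD+MP had 36.0 CPM.

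SyS-like cells were then compared with each other class over the 10 sums of a pair of classes, with the tumour as a block, by edgeR's quasi-likelihood test with Benjamini-Hochberg adjustment over all genes. All 6 genes passed the filter on low counts in each comparison. Against stromal cells 30.6% of 18088 genes were called, 17.2% higher and 13.4% lower in SyS-like cells, and of the 6 genes 1 was higher and 1 lower. Scaling by total counts alone gave 5037 genes higher and 2011 lower in place of 3119 and 2424. *Ppp1r9a* was higher in SyS-like cells by 3.25 ± 0.36 on the log2 scale (SE, adjusted p = 0.000211), with the SyS-like value above the stromal one in all 5 tumours. In MP+BP, with 1 stromal UMI, the ratio of 3.34 had a counting interval from 0.594 to 132. After SyS-like sums were thinned to the stromal depth, *Ppp1r9a* and *Peg10* fell under the filter and were not tested. *Pon3* was lower, at -1.22 ± 0.23 (adjusted p = 0.0041), in all 5 tumours. In BP replicate 2 the ratio of 0.704 had a counting interval from 0.381 to 1.47, which includes equal levels. *Sgce*, at -2.85 ± 0.97 (adjusted p = 0.0542), *Casd1*, at 0.44 ± 0.16 (adjusted p = 0.0616), *Pon2*, at -0.80 ± 0.29 (adjusted p = 0.0664) and *Peg10*, at -0.76 ± 1.16 (adjusted p = 0.663), did not pass by edgeR. With pericyte-like cells alone as the stroma 5 genes passed, *Sgce* among them at -2.38 (adjusted p = 0.0154), an alternative chosen after seeing the data, and without PD+MP 4 passed.

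Against endothelial-like cells 53.3% of 18380 genes were called, 30.3% higher and 23.0% lower in SyS-like cells (5575 and 4223 genes, or 7347 and 3496 with total counts alone). None of the 6 genes was higher and 2 were lower, *Pon2* at -2.18 ± 0.30 (edgeR adjusted p = 0.000226) and *Pon3* at -1.94 ± 0.22 (adjusted p = 6.47e-05), both in all 5 tumours. *Ppp1r9a*, at 1.87 ± 0.80 (edgeR adjusted p = 0.0747), was higher in SyS-like cells in 4 tumours and lower in MP+BP, and without MP+BP it passed at 2.81 (adjusted p = 0.000112). It also passed with DESeq2 at 2.22 (adjusted p = 0.00409), and by edgeR with total counts alone at 2.09 (adjusted p = 0.0433) and after thinning SyS-like sums to endothelial depth at 1.88 (adjusted p = 0.0332). *Peg10*, at 0.18 ± 0.81, and *Sgce*, at -0.34 ± 1.12, had standard errors larger than their differences, with SyS-like cells higher in the BP tumours and lower in the others. Leaving out either BP tumour turned the *Peg10* value negative, at -0.64 and -0.44, and leaving out MP or MP+BP turned the *Sgce* value positive, at 0.16 and 0.88.

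Against macrophage-like cells 63.0% of 18319 genes were called, 36.3% higher and 26.7% lower in SyS-like cells (6653 and 4893 genes, or 10298 and 3115 with total counts alone). Of the 6 genes 3 were higher and 2 lower. *Peg10* was higher by 3.11 ± 0.62 (edgeR adjusted p = 0.00118) in all 5 tumours, a value that rests on 9 macrophage UMIs, and *Sgce* by 2.41 ± 0.58 (adjusted p = 0.00407) in 4 tumours, with MP+BP at 1.86 against 2.30 CPM. The *Peg10* ratios of 1.94 in MP+BP and 3.02 in PD+MP had counting intervals from 0.525 to 16.2 and from 0.507 to 123. Both include equal levels. *Casd1* was higher by 0.41 ± 0.14 (edgeR adjusted p = 0.0277) in all 5 tumours, and did not pass without MP, MP+BP or PD+MP (0.34, 0.41 and 0.35) or with thinned SyS-like sums (0.29, edgeR adjusted p = 0.0863). *Peg10* did not pass the filter on low counts after that thinning and was not tested. *Pon3* was lower, at -2.32 ± 0.16 (edgeR adjusted p = 3.16e-07), in all 5 tumours, and *Pon2*, at -1.19 ± 0.24 (adjusted p = 0.00126), in 4, with PD+MP the other way. *Ppp1r9a*, at -0.12 ± 0.44, did not pass, and it stood at 0.41 without MP+BP (edgeR adjusted p = 0.0851) and at 0.47 with total counts alone. *Pon3* was thus the one gene that passed as lower in SyS-like cells by edgeR in each of the 3 comparisons, while *Pon2* was below 0 in all 3 and passed against stromal cells with DESeq2 (adjusted p = 0.0273) and without PD+MP (edgeR adjusted p = 0.000432). The *Pon3* SyS-like sums, at 7.35 to 10.4 CPM, did not overlap the sums of any other class, at 14.8 CPM or more. That lowest sum, in stromal cells of BP replicate 2, held 10 UMIs, with a counting interval from 7.08 to 27.1 CPM.

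**Figure D4:**
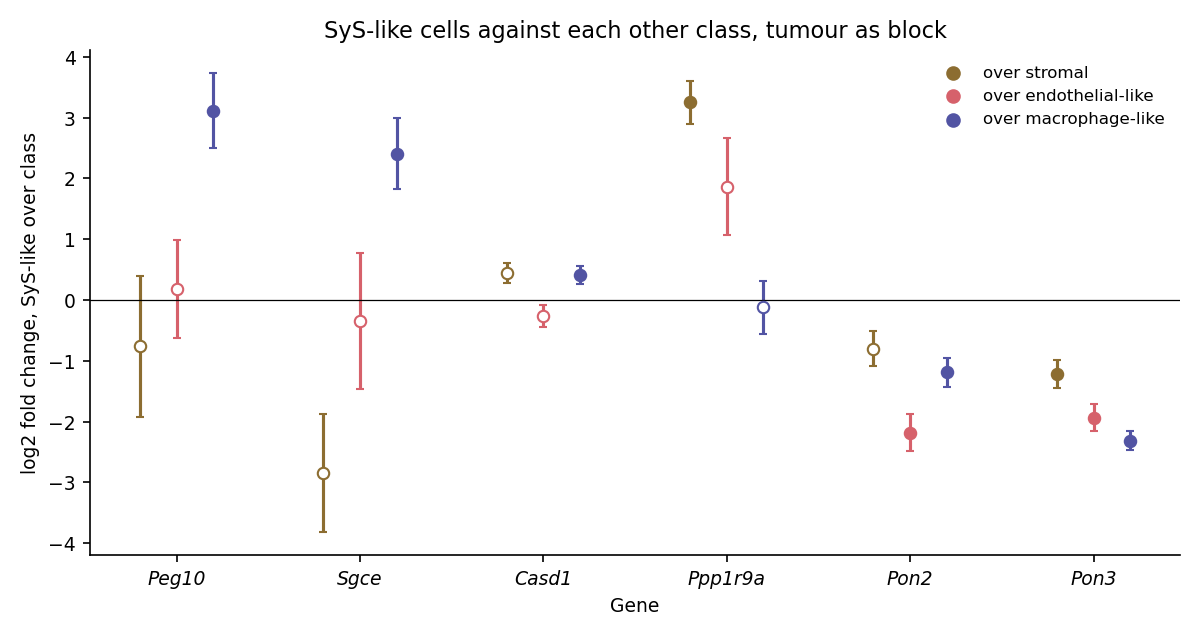
Fitted log2 fold change of SyS-like cells over each other class for the 6 genes, with bars of 1 standard error and filled points where the adjusted p was under 0.05. *Pon3* is below 0 in all 3 comparisons, while *Peg10* and *Sgce* pass against macrophage-like cells only.

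The lists of neighbours and of other imprinted genes were read against the same fits. Of the chromosome 6 neighbours 2 of 8 tested were higher and 3 lower against stromal cells, 0 of 10 higher and 5 lower against endothelial-like cells, and 4 of 10 higher and 1 lower against macrophage-like cells, with median log2 fold changes of -0.48, -1.25 and 0.88 beside 0.18, 0.17 and 0.24 for all genes. *Gng11*, a G protein gamma subunit, was lower in all 3, at -9.13, -9.04 and -2.97. *Col1a2*, a collagen chain next to *Casd1*, was at -7.41 against stromal cells and -2.71 against endothelial-like cells, and *Asb4*, of a ubiquitin ligase family, had no UMI in stromal cells of any tumour and was at least 15.2-fold higher in SyS-like cells, taking 3 UMIs over the class as the floor. *Slc25a13*, a mitochondrial carrier, was higher than in stromal cells by 2.49, and *Tfpi2* was lower, at -6.23. *Tfpi2* and *Dync1i1* were lower than in endothelial-like cells, at -5.67 and -4.32, and *Asb4*, *Pdk4* and *Dync1i1* were higher than in macrophage-like cells, by 4.28, 4.09 and 3.08. The median against stromal cells was the same with *Asb4* at its bound.

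Of the other imprinted genes 11 of 30 tested were higher and 6 lower against stromal cells, 18 of 27 higher and 6 lower against endothelial-like cells, and 24 of 26 higher and none lower against macrophage-like cells, with medians of 0.21, 1.88 and 3.50. *Rtl1*, like *Peg10* a gene derived from a retrotransposon, was higher by 4.54 against endothelial-like and 4.79 against macrophage-like cells, and *Mirg*, *Dlk1*, *Snrpn* and *Meg3* led beside it, at 4.40, 4.37, 4.66 and 4.58 in the comparison each led. *Zdbf2*, *Phlda2* and *Mest* led against stromal cells at 4.29, 3.50 and 3.31, and *Peg12*, *Slc38a4* and *Airn* were lowest there at -5.08, -3.59 and -2.30. *Peg12*, *Grb10* and *Airn* were lowest against endothelial-like cells at -4.46, -3.87 and -2.28. Of the 8 cycling genes 5, 5 and 3 were higher in SyS-like cells in the 3 comparisons and none was lower, with medians of 1.00, 0.92 and 0.41, led by *Cenpf* at 1.64, 1.88 and 1.74, *Top2a* at 1.05 and 0.98, *Mki67* at 1.03 against stromal cells, *Ccnb1* at 1.57 and 1.14 and *Tpx2* at 0.87 against macrophage-like cells.

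Across the 20 sums of 4 classes and 5 tumours, *Peg10* and *Sgce* remained alike, with r of 0.777 and rho of 0.783 on log2(CPM + 1), whereas *Peg10* and *Ppp1r9a* had r of -0.00770. Among 9827 genes with a mean of at least 10 CPM the pattern of *Peg10* was most like that of *Ep400* (r of 0.778), a chromatin remodeler, followed by *Sgce*, and *5430416N02Rik* (0.733) and *Zfpm2* (0.723), a transcription cofactor, were also among the 5 nearest. Among the 5 nearest to *Sgce* were *Htra1* (0.878), a secreted protease, *Afap1l2* (0.866), *Adamts12* (0.862), a matrix protease, and *Acta2* (0.861), the smooth muscle actin of pericytes. These are descriptions over sums that share libraries.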

How the data were processed

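The deposited files are filtered matrices of raw UMI counts, 1 per tumour, made by the authors with Cell Ranger 7.2.0 (file headers) on mm10 (submitters' processing notes). Cells with at least 750 genes and at most 25% mitochondrial UMIs were kept. Doublets were scored per tumour with Scrublet in scanpy 1.11.5, whose automatic threshold marked 4 of 6686 cells in BP replicate 1, so the highest scores up to 0.8% per 1000 cells were removed. Cells were clustered on 3000 genes (Pearson residuals, 30 components, 20 neighbours, Leiden resolution 1), with the domain genes and lists left out, and clusters were named where at least 3 markers of a type were held. UMIs were summed per tumour and class and divided by the total of the sum (CPM). Free RNA was not corrected.

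SyS-like sums were tested against each other class with the quasi-likelihood test of edgeR 4.0.16 (filterByExpr, TMM scaling, tumour as block since both sums come from 1 tumour, adjusted p under 0.05), after a test on simulated data, and with DESeq2 1.42.0 as an alternative. With the tumour as a block, p-values measure the spread of the difference between classes from tumour to tumour, among possibly related animals. The domain genes, lists and tests were chosen with earlier results of these data known. Named genes were all 6 domain genes, up to 3 genes per list, direction and comparison with the largest called change, and the 5 genes most like *Peg10* and *Sgce*, of which some are not reported here. Genes and clusters outside this rule (*Pdk4*, *Dync1i1*, *Bet1*, *Ndn*, *Cdkn1c*, *Peg3*, *Igf2*, *H19*, *Uty* and *Xist* across tumours, and clusters 6 and 18) were picked after their values were seen.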

Additional observations from a re-analysis of the deposited data

Results flagged for a closer look

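In these results both BP tumours went one way (SyS-like over the other class in the same tumour) and a tumour of another label went the opposite way, with a counting interval that did not include equal levels. As log2 ratios of CPM, *Peg10* over stromal cells was -3.16 in MP+BP and -4.09 in PD+MP, whereas SyS-like cells had the higher level in both BP tumours. The stromal sums held 3 UMIs of *Peg10* in BP replicate 1, 0 in BP replicate 2, 12 in MP+BP and 11 in PD+MP. The 12 of MP+BP were in pericyte-like cells. The 11 of PD+MP were in fibroblast-like cells, of which BP replicates 1 and 2 had 2 and 0. *Peg10* over endothelial-like cells was -2.15 in MP+BP against 3.40 and 2.20 in the BP tumours. *Sgce* over endothelial-like cells was -0.90 in MP and -4.32 in MP+BP against 2.68 and 2.50. *Ppp1r9a* in MP+BP was -2.08 over endothelial-like cells and -2.35 over macrophage-like cells. *Pon2* in PD+MP was 0.85 over stromal cells and 0.63 over macrophage-like cells, where it was below 0 in the BP tumours, and *Casd1* in PD+MP was 0.63 over endothelial-like cells. In the pericyte-like cells of PD+MP alone *Pon2* was 86.2 CPM, not below the 81.9 CPM of its SyS-like cells. Each of these labels has 1 tumour, so the differences between labels were not tested.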

How the results depend on the processing

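MP, MP+BP and PD+MP have 1 tumour each, so differences between labels were not tested, and *Peg10* rested on 34 SyS-like UMIs in PD+MP and on 12 or fewer stromal UMIs in any tumour. Total counts alone as the scaling moved the median over all genes, on the log2 scale, from 0.18, 0.17 and 0.24 to 0.44, 0.40 and 0.83 over stromal, endothelial-like and macrophage-like cells.

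The number of domain genes called over stromal cells, 2 as reported, was 4 with DESeq2, 4 with doublets kept, 1 of 4 tested after thinning SyS-like sums to the depth of stromal ones (*Ppp1r9a* and *Peg10* were filtered out), 5 with pericyte-like cells alone (chosen after seeing the data), and 2 to 4 when each tumour was left out, with 4 without PD+MP. Thinning also lowered the genes called there from 5543 of 18088 tested to 3580 of 10251, a share of 34.9% in place of 30.6%, and leaving out a tumour gave 3969 to 6819. *Sgce* over stromal cells passed with DESeq2 (adjusted p = 0.00144), without BP replicate 2, without PD+MP, with Scrublet's automatic threshold, with doublets kept and with pericyte-like cells alone, and kept its direction in all alternatives. Over endothelial-like cells 2 to 3 domain genes and 8355 to 10177 genes were called when each tumour was left out, and over macrophage-like cells 4 to 5 and 10267 to 11832. Thinning gave 3 domain genes of 5 tested over macrophage-like cells in place of 5 of 6, since *Casd1* did not pass and *Peg10* was filtered out. Of 279 alternative values of the single fold changes 11 changed sign, none of them from a called value. *Peg10* over stromal cells ran from -1.51 to 0.19 when each tumour was left out, with 0.19 without MP+BP and 0.11 without PD+MP, and was 0.11 with pericyte-like cells alone. *Peg10* over endothelial-like cells ran from -0.64 to 1.10, with -0.64 and -0.44 without BP replicate 1 and 2. *Sgce* over endothelial-like cells ran from -1.37 to 0.88, with 0.16 without MP and 0.88 without MP+BP, and was 0.029 without the cluster that *Rgs5* also leads. *Ppp1r9a* over macrophage-like cells was 0.47 with total counts alone, 0.22 with no replicate block and ran from -0.40 to 0.41 when each tumour was left out, highest without MP+BP. The cause of these changes was not tested.

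Without the block that pairs both sums of a tumour, 2, 3 and 5 domain genes and 5935, 9454 and 11136 genes were called over stromal, endothelial-like and macrophage-like cells, and *Ppp1r9a* over endothelial-like cells then passed at 2.04 (edgeR adjusted p = 0.0223).

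The log2 ratio of the highest to the lowest tumour in SyS-like cells, 4.51 for *Peg10*, was 4.75 with at least 1500 genes per cell, 4.78 without cycling clusters, 4.40 with TMM scaling and 2.85 to 4.51 when each tumour was left out, lowest without PD+MP. For *Sgce*, at 4.42, it was 4.33 with Scrublet's automatic threshold, 4.33 with doublets kept, 4.64 without cycling clusters, 4.37 with TMM scaling and 3.94 to 4.42 when each tumour was left out.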
